A study of Mus musculus with 12 samples.

Results

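Lung tissue from A/J mice aged 42 weeks, labelled as normal controls, was measured on 7 arrays whose titles carry numbers in separate ranges, and the comparison set LZ61, LZ62 and LZ63 (the LZ60s arrays, n = 3) against LZ22, LZ23, LZ24 and LZ25 (the LZ20s arrays, n = 4). These are all 7 of the series' 42-week arrays, among 12 arrays in all. They were taken by the number in the title. Both ranges share the strain, the supplier (Jackson Labs), the age, and the tissue, and carry no transgene or treatment in the labels, which do not say what the numbers stand for. The other 5 arrays, of lungs at 24 to 26 weeks (3 with AJ numbers and 2 with low LZ numbers), serve below as a range of levels and as extra groups in a second fit. Total RNA was hybridised as biotin-labelled cRNA to Affymetrix MG_U74Av2 arrays. The labels do not say that the arrays of a range hold separate animals, so a p-value here measures array-to-array spread, which may be technical.

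The run records place LZ61 to LZ63 on run day 4 and LZ22 to LZ25 on run day 3, on 1 fluidics station. Number range and run day are the same split and cannot be told apart, so each difference below is a difference between 2 sets of arrays and is attributed to neither.

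A lung taken whole borders on several other tissues. Cardiac muscle cells extend along the pulmonary veins of the mouse and carry atrial contractile proteins, while the oesophagus, with its keratinised squamous lining and striated muscle coat in mice, lies behind the trachea. White and brown fat surround the hilum and mediastinum, and lymphoid tissue and blood contribute immune and red cell transcripts. In bulk tissue, fewer cells of a type and less RNA per cell cannot be told apart.

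Signal here is the deposited linear value of a probe set, and its trimmed mean was 500.3 on every array. The genes that define lung were high on all 7 arrays. Sftpc, the surfactant protein C gene of alveolar type 2 cells, read 35176.7, 40557.5 and 29120.6 on LZ61, LZ62 and LZ63, against 29247.5, 37432.4, 33757.1 and 30588.0 on LZ22, LZ23, LZ24 and LZ25. The club cell secretoglobin gene Scgb1a1 and the alveolar type 1 gene Ager lay between 13102.8 and 34487.5 on every array. Of 12422 probe sets that are not controls, 7453 had a mean log2 signal at or above the 40th percentile (a signal of 108) and were tested, and they stand for 5727 genes with a single symbol. Members of the gene lists below that fell under this level are given by signal only.

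No probe set passed a false discovery rate of 5% in limma with the 7 arrays (0 of 7453, or 0.0%, in either direction). An unadjusted p under 0.05 was reached by 1179 probe sets (15.8%), and the smallest adjusted p was 0.0713, for Rab20. The LZ60s arrays all lay above the LZ20s arrays for 480 probe sets (6.44%) and all below them for 708 (9.5%). An exact two-sided permutation test over the 35 ways to split 7 arrays into 3 and 4 also called 0 probe sets after adjustment, since its smallest p is 0.0286 and the smallest adjusted p was 0.265. It gave 805 probe sets an unadjusted p under 0.05. A fit of all 12 arrays in 4 groups, which borrows the spread of the younger arrays, called 112 probe sets (1.5%), of which 31 (0.416%) were higher and 81 (1.09%) lower in the LZ60s arrays. Differences are log2, LZ60s minus LZ20s, with the standard error (SE) and limma's adjusted p from the 7 arrays unless the 12-array fit is named.

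The arrays did not contribute alike. LZ63 had 95 tested probe sets at least 2 log2 units above the median of the other 6 arrays and 9 as far below. LZ61 had 12 above and 3 below, and LZ62 had 2 above and 37 below. Among the LZ20s arrays, LZ22 had 0 above and 32 below, LZ23 had 10 and 6, LZ24 had 11 and 38, and LZ25 had 7 and 6. A principal component analysis gave a leading axis with 42.0% of the variance, which placed LZ63 at 44.9, with LZ24 at -22.9 and LZ22 at -20.9 at the other end. The second held 20.9% and set LZ62 apart at 29.7. Neither component separated the number ranges: LZ61 (7.0 on the first) lay near LZ25 (0.1).

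Array pairs showed the same unevenness. The median Spearman correlation over the tested probe sets was 0.924 within the LZ60s arrays (3 pairs, 0.900 to 0.945), 0.956 within the LZ20s arrays (6 pairs, 0.954 to 0.973) and 0.934 between the ranges (12 pairs, 0.882 to 0.962). LZ61 correlated more closely with LZ25 (0.962) than with LZ62 (0.945) or LZ63 (0.924).

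**Figure D1:**
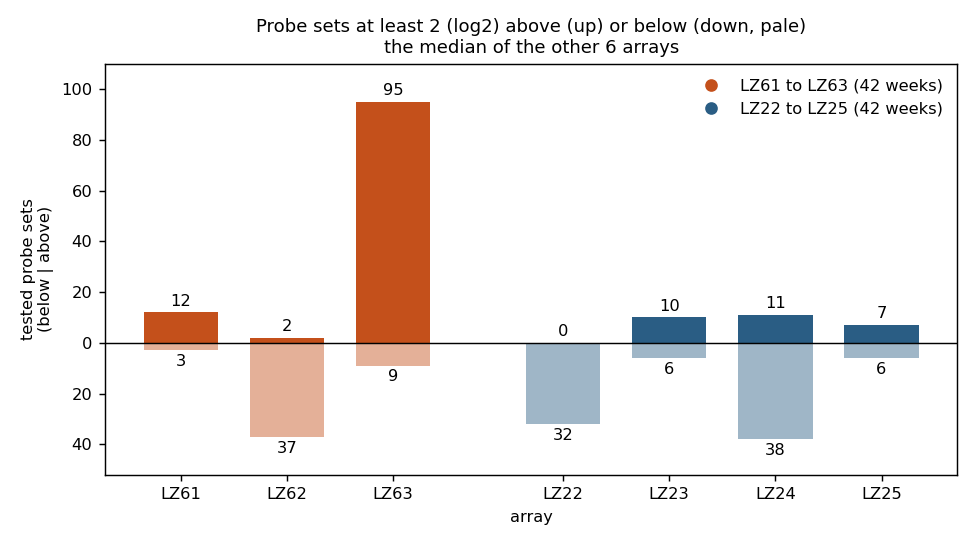
Bars count the tested probe sets at least 2 log2 units above (upward) or below (downward, pale) the median of the other 6 arrays, for LZ61 to LZ63 (orange) and LZ22 to LZ25 (blue). LZ63 stands out with 95 above, while LZ62, LZ22 and LZ24 have 37, 32 and 38 below.

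Heart muscle genes read higher on average in the LZ60s arrays, and none passed the test. Of the 22 measured members of the heart list, 14 were tested, 12 with a positive and 2 with a negative difference, and none had groups that did not overlap (0 of 14, against 6.23% of all genes above and 9.52% below). The list's median difference was 1.02, against -0.02 over all 5727 tested genes, and it was 0.63 without LZ63, 1.64 without LZ62, 0.25 without LZ22 and LZ24 and 1.80 with a filter at the 60th percentile. For the 8 tested contractile members it was 2.59. Of the 14 tested members, 2 had a LZ20s mean under the level for testing, which favours a positive sign in them. Myh6, the alpha myosin heavy chain of the atrium and the adult mouse ventricle, read 2217.4, 754.7 and 4335.0 on LZ61, LZ62 and LZ63, against 6.6, 1299.7, 45.3 and 1606.2 on LZ22, LZ23, LZ24 and LZ25. LZ22 and LZ24 lay far below the other 5 arrays and LZ63 was highest. LZ62 read less than LZ23 and LZ25, so the ranges overlapped. The difference was 3.61 (SE 2.29, adjusted p = 0.488).

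The same order of arrays returned in the other atrial sarcomere genes. Myl7, the atrial regulatory light chain, read 8109.2, 2119.2 and 11081.5 on LZ61, LZ62 and LZ63, against 42.7, 4612.9, 109.1 and 6029.8 on LZ22, LZ23, LZ24 and LZ25 (difference 3.26, SE 2.18, adjusted p = 0.509). Myl4, the atrial essential light chain, read 5468.8, 1188.5 and 8807.3 against 130.1, 3707.0, 76.2 and 4803.7 on the same arrays (2.57, SE 1.93, adjusted p = 0.551). Tnni3 (cardiac troponin I) read 2256.6, 716.8 and 3750.5 against 28.1, 1078.2, 52.4 and 1466.9 (3.05, SE 1.77, adjusted p = 0.454). A second tested probe set of Myl4 did not follow this order, with 514.2, 477.4 and 230.8 on LZ61, LZ62 and LZ63, against 162.6, 319.7, 248.1 and 352.2 on LZ22, LZ23, LZ24 and LZ25. On the probe sets of these genes with the higher mean signal, LZ63 and LZ61 were the highest arrays, LZ62 lay below LZ23 and LZ25, and LZ22 and LZ24 were lowest. Tnnt2 (cardiac troponin T) and Csrp3, a Z-disc LIM protein, followed it too, with differences of 2.61 (SE 1.64, adjusted p = 0.486) and 3.95 (SE 2.54, adjusted p = 0.495).

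Other heart genes varied less on the probe set with the higher mean signal. Actc1, cardiac alpha actin, read 4689.9, 2029.7 and 9970.7 on LZ61, LZ62 and LZ63, against 1405.7, 3310.8, 1354.0 and 3978.1 on LZ22, LZ23, LZ24 and LZ25 (1.03, SE 0.68, adjusted p = 0.500). A second tested probe set of Actc1 varied more, in the same order of arrays as Myh6. It read 2053.3, 564.4 and 4552.4 on LZ61, LZ62 and LZ63. On LZ22, LZ23, LZ24 and LZ25 it read 248.4, 1215.9, 293.8 and 1688.5 (1.48, SE 1.06, adjusted p = 0.528). Nppa, the atrial natriuretic peptide gene, read 1031.6, 301.8 and 1270.6 against 267.6, 515.6, 177.2 and 701.3 (1.02, SE 0.69, adjusted p = 0.506). Myh7, the beta myosin heavy chain, kept within 923.2 and 2037.2 on all 7 arrays (0.49, SE 0.22, adjusted p = 0.325). The connexin gene Gja5, which marks atrial muscle and also arterial endothelium, leaned the other way with 266.4, 330.5 and 245.8 on LZ61, LZ62 and LZ63, against 418.0, 429.8, 328.2 and 331.3 on LZ22, LZ23, LZ24 and LZ25 (-0.42, SE 0.17, adjusted p = 0.280). Ankrd1, a stress-responsive sarcomere protein gene, had a difference of -0.03. The ventricular light chain gene Myl2 stayed at or under 47.7 on all 7 arrays.

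The ventricular and slow skeletal light chain gene Myl3 was not tested, and separated LZ63 from every other array, with 91.7, 35.7 and 8952.6 on LZ61, LZ62 and LZ63, against 7.7, 6.0, 4.2 and 86.3 on LZ22, LZ23, LZ24 and LZ25. The calcium release channel gene Ryr2 and the sarcolipin gene Sln were also under the level for testing. Sln read between 49.9 and 127.7 on all 7 arrays.

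In the 5 younger lungs the same atrial genes were all present. Myh6 lay between 732 and 1678 there and Myl7 between 2145 and 5923. LZ22 and LZ24 therefore fell below, and LZ61 and LZ63 above, the younger range for both genes, while LZ62, LZ23 and LZ25 lay within it or at its edge. The summed signal of the 22 heart members was 32105.3, 11716.8 and 62999.4 on LZ61, LZ62 and LZ63, against 5346.1, 20570.9, 5070.4 and 26120.3 on LZ22, LZ23, LZ24 and LZ25. Without LZ22 and LZ24 the Myl4 difference turned negative (-0.13), and without LZ22, LZ24 and LZ63 the median of the heart list was -0.19.

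Cardiac and skeletal actin and Myl7 share a feature that the choice of arrays did not use. A CArG box, the element bound by serum response factor, begins and ends in the 250 bases before the annotated start, searched on both strands, in 3 of the 10 heart contractile genes with a promoter sequence (Actc1, Myl3 and Myl7, 30.0%), in 2 of 12 skeletal contractile genes (Acta1 and Myh4, 16.7%) and in 1 of 7 smooth muscle genes (Myl9, 14.3%). Of all 32851 promoters of that length, 482 (1.47%) hold one. That share counts single promoters, whereas a gene of the sets counts if any of its promoters holds a box. The last 150 bases before the start are shown for the 3 genes whose signals are set side by side here, 5′ to 3′ on the gene's strand, from RefSeq on GRCm38.p6, with the CArG box in capitals.
Actc1 (chr2:114052876-114053025, minus strand): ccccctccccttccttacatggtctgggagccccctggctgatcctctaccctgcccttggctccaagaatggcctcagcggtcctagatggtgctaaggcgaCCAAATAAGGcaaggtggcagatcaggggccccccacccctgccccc
Myl7 (chr11:5898783-5898932, minus strand): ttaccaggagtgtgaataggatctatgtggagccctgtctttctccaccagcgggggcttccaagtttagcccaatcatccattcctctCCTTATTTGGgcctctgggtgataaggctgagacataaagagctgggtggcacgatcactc
Acta1 (chr8:123894776-123894925, minus strand): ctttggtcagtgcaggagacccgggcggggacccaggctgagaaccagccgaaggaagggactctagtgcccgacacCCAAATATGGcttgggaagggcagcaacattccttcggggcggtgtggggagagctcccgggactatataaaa
The box lies at bases -47 to -38 in Actc1, -61 to -52 in Myl7 and -73 to -64 in Acta1, counted back from the start. A match of letters is a description and not a bound site. Although all 3 promoters hold the box, Acta1 was highest on LZ63 by far, while Actc1 and Myl7 were also high on LZ61.

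Skeletal muscle genes read high on LZ63 alone. Of 30 measured members, 15 were tested, 13 with positive and 2 with negative differences, and 3 had LZ60s arrays all above the LZ20s arrays (Casq1, Mybph and Myoz1), beside 6.23% of all genes. Of the 15, 8 would not have reached the level for testing without LZ63, and 9 had a LZ20s mean under it. That level favours a positive sign in such members, and the counts describe only the members that reached it. The median difference was 1.45, but 0.40 without LZ63, 2.40 without LZ61, 0.77 with array weights and 0.38 with a filter at the 60th percentile. Acta1, skeletal alpha actin, read 229.7, 57.4 and 20112.0 on LZ61, LZ62 and LZ63, against 8.6, 481.1, 13.2 and 270.3 on LZ22, LZ23, LZ24 and LZ25. LZ63 lay far above the other 6 arrays, which overlapped between the ranges. The difference was 3.37 (SE 2.67, adjusted p = 0.570), and 0.89 without LZ63.

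Fast-fibre genes drew the same contrast. Tnnt3, fast troponin T, read 74.1, 65.3 and 8750.0 on LZ61, LZ62 and LZ63, against 23.3, 101.0, 51.3 and 44.7 on LZ22, LZ23, LZ24 and LZ25 (2.85, SE 1.92, adjusted p = 0.509). Myl1, the fast essential light chain, reached 13149.9 on LZ63 and at most 197.9 on any other array. Tnnc2 (fast troponin C) reached 6771.5 and Atp2a1, the calcium pump of fast fibres, 9737.7 on LZ63, with at most 157.9 on any other array. Casq1, the calcium-binding protein of the sarcoplasmic reticulum, read 327.6, 289.5 and 5832.3 on LZ61, LZ62 and LZ63, against 80.0, 193.3, 96.6 and 126.4 on LZ22, LZ23, LZ24 and LZ25, so its groups did not overlap even apart from LZ63. Its difference was 2.81 with all 7 arrays (SE 1.16, adjusted p = 0.325) and 1.39 without LZ63. Pvalb, a calcium buffer of fast fibres, and Mylpf, their regulatory light chain, peaked on LZ63 at 4309.7 and 893.6. Among the skeletal myosin genes, Myh1 and Myh8 read 5390.7 and 1945.7 on LZ63 and at most 22.5 elsewhere, while Myh2 stayed at or under 33.5 on all 7 arrays. The probe sets of Myh4 disagreed: one read 1076.1 on LZ63 and at most 26.8 elsewhere, and the other lay between 27.2 and 157.5 with LZ63 lowest. Chrne, a subunit of the adult muscle acetylcholine receptor, read 174.5, 110.9 and 298.0 on LZ61, LZ62 and LZ63, against 295.2, 438.9, 364.3 and 348.5 on LZ22, LZ23, LZ24 and LZ25 (-0.998, SE 0.30, adjusted p = 0.184).

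Genes shared by heart and skeletal muscle showed both patterns at once. All 15 tested of 18 measured had positive differences, with a median of 1.76 (0.98 without LZ63). In 2 the LZ60s arrays all lay above the LZ20s arrays, beside 6.23% of all genes. Of the 15, 4 would not have reached the level for testing without LZ63, and 6 had a LZ20s mean under it. That level favours a positive sign in such members, and the counts describe only the members that reached it. Mb, the myoglobin gene, read 458.1, 96.6 and 8728.1 on LZ61, LZ62 and LZ63, against 9.8, 442.5, 21.8 and 545.9 on LZ22, LZ23, LZ24 and LZ25 (3.10, adjusted p = 0.545). LZ63 was highest and LZ22 and LZ24 lowest. Cox7a1, the muscle form of a cytochrome oxidase subunit, read 284.3, 101.4 and 656.8 against 53.6, 68.1, 32.2 and 157.3 (2.02, SE 0.73, adjusted p = 0.255). Hrc, a calcium-binding protein of the sarcoplasmic reticulum, had groups that did not overlap, with 301.2, 236.3 and 1096.4 on LZ61, LZ62 and LZ63, against 117.1, 181.1, 88.7 and 188.2 on LZ22, LZ23, LZ24 and LZ25 (1.64, SE 0.55, adjusted p = 0.234). Of the 95 probe sets far above on LZ63, 31 belonged to the heart, shared or skeletal lists, as did 17 of the 32 far below on LZ22 and 16 of the 38 far below on LZ24. These lists hold 14, 15 and 15 of the 5727 tested genes. Of those, 1, 4 and 8 reached the level for testing only with LZ63, which favours the LZ63 count.

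Smooth muscle genes differed less. All 10 members were tested and all 10 differences were positive, with a median of 0.65 that became 0.20 without LZ63. Des, the desmin gene, read 333.3, 478.7 and 792.9 on LZ61, LZ62 and LZ63, against 251.9, 300.1, 227.9 and 249.6 on LZ22, LZ23, LZ24 and LZ25 (0.97, SE 0.26, adjusted p = 0.167). Myl9, the smooth muscle regulatory light chain, read 642.5, 598.2 and 929.4 against 379.9, 418.2, 510.0 and 430.2 (0.72, SE 0.18, adjusted p = 0.144). In both genes the LZ60s arrays all lay above the LZ20s arrays, beside 6.23% of all genes, and neither passed the test. Desmin is also a protein of striated muscle, and its highest array was again LZ63. Myosin light chain kinase (Mylk) differed by 0.09.

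Many squamous epithelial genes read far higher on LZ63 than on any other array, with exceptions such as Sprr1b. Of 33 measured members, 19 were tested, 16 with positive and 3 with negative differences, and in 4 the LZ60s arrays all lay above the LZ20s arrays (Lor, Ly6d, Pkp1 and Ppl), beside 6.23% of all genes. The median difference was 0.89, and 0.15 without LZ63. Of the 19, 2 had a LZ20s mean under the level for testing, which favours a positive sign in them. Krt4, a keratin of the suprabasal oesophagus, read 311.0, 303.7 and 19799.4 on LZ61, LZ62 and LZ63, against 218.8, 384.0, 309.7 and 283.6 on LZ22, LZ23, LZ24 and LZ25 (2.07, SE 1.63, adjusted p = 0.570). Its partner Krt13, untested, read 8.7, 62.4 and 13624.0 against 5.8, 42.9, 13.8 and 37.4. Signals for both keratins on LZ63 stood far above the other 6 arrays, which overlapped between the ranges.

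Genes of the cornified envelope read similarly high on LZ63. Lor, the loricrin gene, read 435.0, 433.2 and 12579.4 on LZ61, LZ62 and LZ63, against 359.2, 377.0, 390.2 and 373.1 on LZ22, LZ23, LZ24 and LZ25 (1.83, adjusted p = 0.529). The untested genes Krtdap, Sprr3, Lgals7 and Tgm3 read 13259.0, 7880.4, 1571.6 and 1568.4 on LZ63 and at most 83.4 on any other array. Calm4, a calmodulin-like protein of keratinising epithelium, reached 19372.8 on LZ63, against at most 233.0 elsewhere. The basal keratins did not share in this, since Krt5, Krt14 and Krt15 stayed at or under 53.2 on all 7 arrays, as did the envelope gene Ivl. Sprr1b varied apart from the rest, at 8025.8, 15224.8 and 10176.4 on LZ61, LZ62 and LZ63, against 9904.6, 9076.2, 23184.7 and 9781.1 on LZ22, LZ23, LZ24 and LZ25.

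Some genes outside the lists stood far above on LZ63 in the same way and were picked after their values were seen. Ada, adenosine deaminase, which is abundant in the mouse upper digestive tract, read 148.5, 341.4 and 15700.6 on LZ61, LZ62 and LZ63, against 194.0, 266.7, 238.2 and 211.3 on LZ22, LZ23, LZ24 and LZ25 (2.04, SE 1.68, adjusted p = 0.587). Asprv1, a protease of keratinised epithelium, read 219.2, 235.6 and 11473.2 against 100.4, 123.7, 96.6 and 169.7 (2.81, SE 1.53, adjusted p = 0.429). Cdsn, the corneodesmosin gene, and Ly6g6c reached 2699.1 and 1653.8 on LZ63. Without LZ63 the Ada difference was -0.005.

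**Figure D2:**
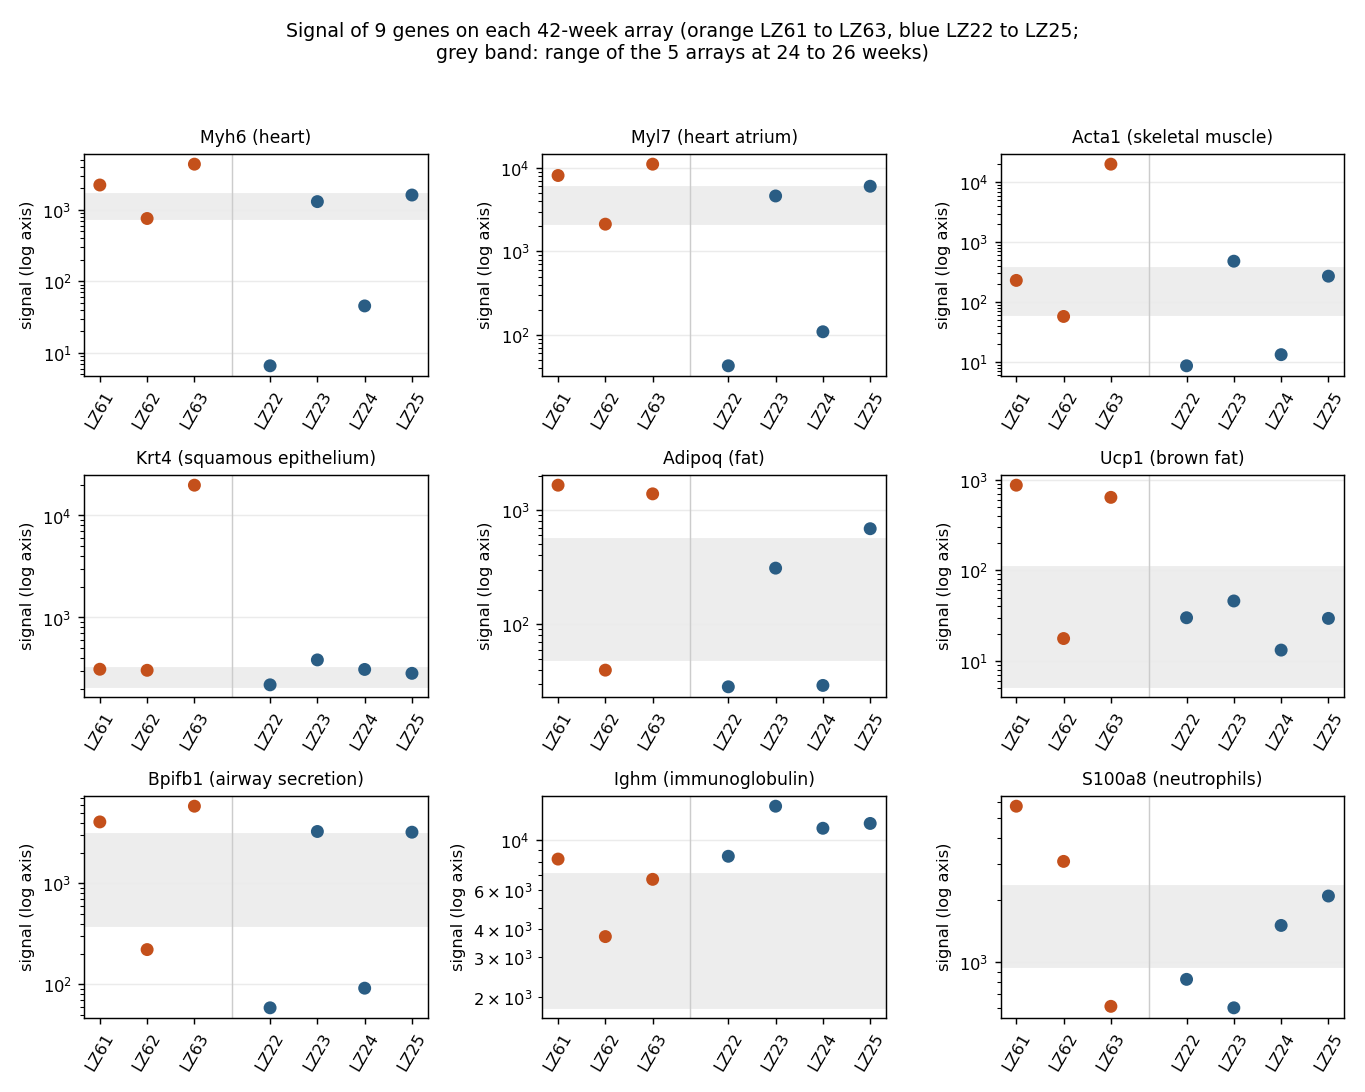
Each panel plots the signal (log axis) of 1 gene on LZ61, LZ62 and LZ63 (orange) and on LZ22, LZ23, LZ24 and LZ25 (blue), with the range of the 5 younger lungs as a grey band. Acta1 and Krt4 stand out on LZ63 only, Myh6 and Myl7 are lowest on LZ22 and LZ24, and Adipoq and Ucp1 are highest on LZ61 and LZ63.

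Fat genes were high on LZ61 and LZ63 and low on LZ62. Of 26 measured white fat members, 18 were tested, 15 with positive and 3 with negative differences, and the median was 0.40 (0.25 without LZ63). Of the 18, 3 had a LZ20s mean under the level for testing, which favours a positive sign in them. Adipoq, the adipocyte hormone adiponectin, read 1648.3, 39.6 and 1384.1 on LZ61, LZ62 and LZ63, against 28.3, 309.6, 29.1 and 685.4 on LZ22, LZ23, LZ24 and LZ25 (1.96, SE 1.96, adjusted p = 0.665). LZ62, LZ22 and LZ24 were low together. Car3, a carbonic anhydrase abundant in adipocytes and slow muscle, read 2210.2, 9.0 and 3344.9 against 8.7, 240.4, 20.5 and 712.0 (2.45, SE 2.80, adjusted p = 0.707). Fabp4, the adipocyte lipid-binding protein gene, read 268.8, 102.3 and 300.8 against 62.7, 101.2, 76.8 and 161.4 (1.10, SE 0.44, adjusted p = 0.272). Retn, the resistin gene, which was not tested, followed Adipoq with 320.7, 11.1 and 368.0 against 12.4, 80.5, 8.6 and 185.0.

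Among the other white fat genes, Lipe and Lep lay all above and Cd36 all below (beside 6.23% and 9.52% of all genes). Lipe, hormone-sensitive lipase, read 520.7, 638.5 and 696.5 on LZ61, LZ62 and LZ63, against 377.2, 269.7, 363.5 and 483.7 on LZ22, LZ23, LZ24 and LZ25 (0.75, SE 0.20, adjusted p = 0.166), with groups that did not overlap. Lep, the leptin gene, did likewise (0.52, SE 0.19, adjusted p = 0.244). Cd36, a fatty acid transporter that endothelium and macrophages share, lay the other way (-0.39, adjusted p = 0.293), also without overlap.

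Ucp1 and Cidea, genes of brown fat, were high on LZ61 and LZ63. Ucp1, the uncoupling protein that defines brown adipocytes, read 866.5, 17.7 and 636.2 on LZ61, LZ62 and LZ63, against 30.0, 45.9, 13.2 and 29.5 on LZ22, LZ23, LZ24 and LZ25, and between 5.2 and 107.6 in the younger lungs. Cidea, a lipid droplet protein, read 771.7, 12.1 and 640.3 against 22.7, 77.1, 17.0 and 103.4. Neither passed the level for testing. Of the 6 measured members 2 were tested, both with positive differences and a median of 0.65. Dio2, the deiodinase that activates thyroid hormone in brown fat, had groups that did not overlap, with 219.7, 168.0 and 200.5 on LZ61, LZ62 and LZ63, against 125.1, 115.4, 114.2 and 123.4 on LZ22, LZ23, LZ24 and LZ25 (0.71, adjusted p = 0.158).

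Secreted proteins of the large airways shared the low arrays of fat. Reg3g, an antibacterial lectin gene, read 2203.8, 19.2 and 2953.5 on LZ61, LZ62 and LZ63, against 10.7, 1122.1, 13.4 and 2334.2 on LZ22, LZ23, LZ24 and LZ25 (1.85, SE 3.03, adjusted p = 0.802). Bpifb1, a secretory protein of airway epithelium and glands, read 4071.9, 220.5 and 5830.9 against 58.3, 3272.4, 91.3 and 3219.8 (1.84, SE 2.18, adjusted p = 0.718). Both were high on LZ61, LZ63, LZ23 and LZ25 and low on LZ62, LZ22 and LZ24, and the difference of each turned negative without LZ22 and LZ24 (-1.70 and -0.90). Tff2, a trefoil peptide gene, and Ltf, the lactoferrin gene of glands and neutrophils, had the same high and low arrays. The club cell list as a whole had a median of 0.13, with 6 of 10 tested members positive and 4 negative.

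Immunoglobulin genes were lower on average in the LZ60s arrays, most of all on LZ62, and none passed the test. Of 33 measured members of the immunoglobulin and plasma cell list, 28 were tested, 23 with negative and 5 with positive differences, with a median of -0.85. The LZ60s arrays all lay below the LZ20s arrays for 4 (Ighm, Igkv4-70, Igkv14-111 and Igkv8-30), beside 9.52% of all genes. Ighm, the mu heavy chain, read 8228.8, 3710.9 and 6681.7 on LZ61, LZ62 and LZ63, against 8468.7, 14167.0, 11292.7 and 11866.9 on LZ22, LZ23, LZ24 and LZ25 (-0.94, SE 0.28, adjusted p = 0.195). LZ61 lay just under LZ22, and LZ62 was lowest. Other tested probe sets assigned to Ighm ranged from -2.15 to -0.11 and their groups overlapped.

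The list's median moved to -0.26 without LZ62, and was -1.48 without LZ22, LZ24 and LZ63. Igha, the alpha heavy chain, read 7822.6, 3711.0 and 7595.7 on LZ61, LZ62 and LZ63, against 8050.8, 10863.9, 6748.6 and 8700.1 on LZ22, LZ23, LZ24 and LZ25 (-0.49, SE 0.28, adjusted p = 0.427). Jchain, which joins IgA and IgM polymers, read 2947.2, 763.2 and 1886.9 against 1639.8, 4543.9, 2378.2 and 3667.9 (-0.81, SE 0.56, adjusted p = 0.513). Apart from the immunoglobulins and Jchain, 4 plasma cell genes were tested, 3 with negative and 1 with a positive difference. Their median was -0.225 (-0.337 to 0.307), and the regulators Xbp1 and Prdm1 were among them (-0.13 and 0.31). The younger lungs gave Ighm between 1785 and 7024, below all of the LZ20s arrays. Probe sets for immunoglobulin variable genes detect near-identical family members, so a single variable gene is uncertain.

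B cell genes differed less than the immunoglobulins. Of 19 measured members 17 were tested, 12 with negative and 5 with positive differences, and the median was -0.05. The array medians, centred on each gene's median across all 7, were 0.86, -0.08 and -0.62 on LZ61, LZ62 and LZ63, against -0.02, 0.49, 0.11 and -0.02 on LZ22, LZ23, LZ24 and LZ25. Cd79a, a part of the B cell receptor, read 2279.8, 1031.7 and 518.5 against 775.5, 1387.1, 949.7 and 887.2 (0.13, SE 0.49, adjusted p = 0.920). LZ61 was the highest and LZ63 the lowest array, so the spread was within the LZ60s range. Spib, a B cell transcription factor gene, had -0.65 (SE 0.50, adjusted p = 0.552) on one tested probe set and 0.08 on the other.

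T cell genes leaned lower with exceptions. Of 15 tested members 9 were negative and 6 positive, with a median of -0.25 (0.03 without LZ63). Cd2, an adhesion molecule of T and NK cells, read 307.8, 315.3 and 161.5 on LZ61, LZ62 and LZ63, against 500.2, 505.9, 476.1 and 341.8 on LZ22, LZ23, LZ24 and LZ25 (-0.85, SE 0.25, adjusted p = 0.182). Lat, an adaptor of T cell receptor signalling, lay on the other side with 225.9, 301.7 and 260.5 against 142.2, 137.2, 181.5 and 126.8 (0.84, SE 0.19, adjusted p = 0.131). Both had groups that did not overlap, in opposite directions, beside 6.23% of all genes above and 9.52% below. Cd3g, a subunit of the receptor complex, overlapped (-0.57, SE 0.34, adjusted p = 0.431). The cytotoxic genes Ccl5 and Gzmb were highest on LZ24 (3418.1 and 381.3). Their summed signal was 879.7, 1795.8 and 413.4 on LZ61, LZ62 and LZ63. On LZ22, LZ23, LZ24 and LZ25 it was 2342.0, 950.7, 3799.4 and 1101.0, so the ranges overlapped.

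Macrophage and monocyte genes were mostly lower in the LZ60s arrays. Of 19 tested members, 17 were negative and 2 positive, with a median of -0.38, and for 4 the LZ60s arrays all lay below (Cd68, Marco, Ctss and Mrc1), beside 9.52% of all genes. Cd68, a lysosomal membrane protein of macrophages, read 981.8, 831.5 and 459.2 on LZ61, LZ62 and LZ63, against 1622.0, 1573.4, 1376.1 and 1181.2 on LZ22, LZ23, LZ24 and LZ25 (-0.98, SE 0.25, adjusted p = 0.147). It was called lower in the 12-array fit (adjusted p = 0.0451), the only member of the list to be so. Marco, a scavenger receptor of alveolar macrophages, read 151.7, 87.0 and 45.1 against 211.8, 199.8, 345.6 and 156.4 (-1.38, SE 0.41, adjusted p = 0.184). LZ63 was the lowest array for both genes. Without LZ63 the list's median was -0.32, and with array weights, which give LZ63 0.407 and LZ61 1.93, it was -0.19.

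Neutrophil, MHC class II and interferon genes pulled in different directions. S100a8, a calprotectin subunit of neutrophils, read 5722.1, 3089.3 and 612.2 on LZ61, LZ62 and LZ63, against 827.5, 602.2, 1511.0 and 2098.5 on LZ22, LZ23, LZ24 and LZ25 (0.98, SE 0.88, adjusted p = 0.621), and S100a9, the other subunit, kept the same order. LZ61 and LZ62 were high and LZ63 was among the lowest, so the neutrophil list's 6 positive and 2 negative members of 8 (median 0.59) stand beside a split within the LZ60s arrays. MHC class II members were negative in 9 of 11 (median -0.18, and 0.14 without LZ63). Interferon-response members were negative in 21 of 23, with a median of -0.22 that became -0.04 without LZ63. Ifi47, an interferon-inducible GTPase, read 591.6, 558.2 and 259.2 against 1122.0, 850.5, 1062.3 and 738.3 (-1.08, SE 0.29, adjusted p = 0.175).

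Red cell genes as a list were highest on LZ24. Bpgm, the bisphosphoglycerate mutase of red cells, read 730.8, 625.0 and 619.1 on LZ61, LZ62 and LZ63, against 970.9, 1238.2, 5182.2 and 1189.1 on LZ22, LZ23, LZ24 and LZ25 (-1.33, SE 0.60, adjusted p = 0.347). Its difference was -0.78 without LZ24. It alone of the 6 tested members had LZ60s arrays all below the LZ20s arrays, beside 9.52% of all genes. Alas2, the first enzyme of haem synthesis in red cell precursors, and Slc4a1, the anion exchanger, reached 15210.1 and 1614.1 on LZ24. The adult globin gene Hbb-b2 was also highest there at 22401.8. All 6 tested members were negative, with a median of -0.54 that became -0.07 without LZ24.

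**Figure D3:**
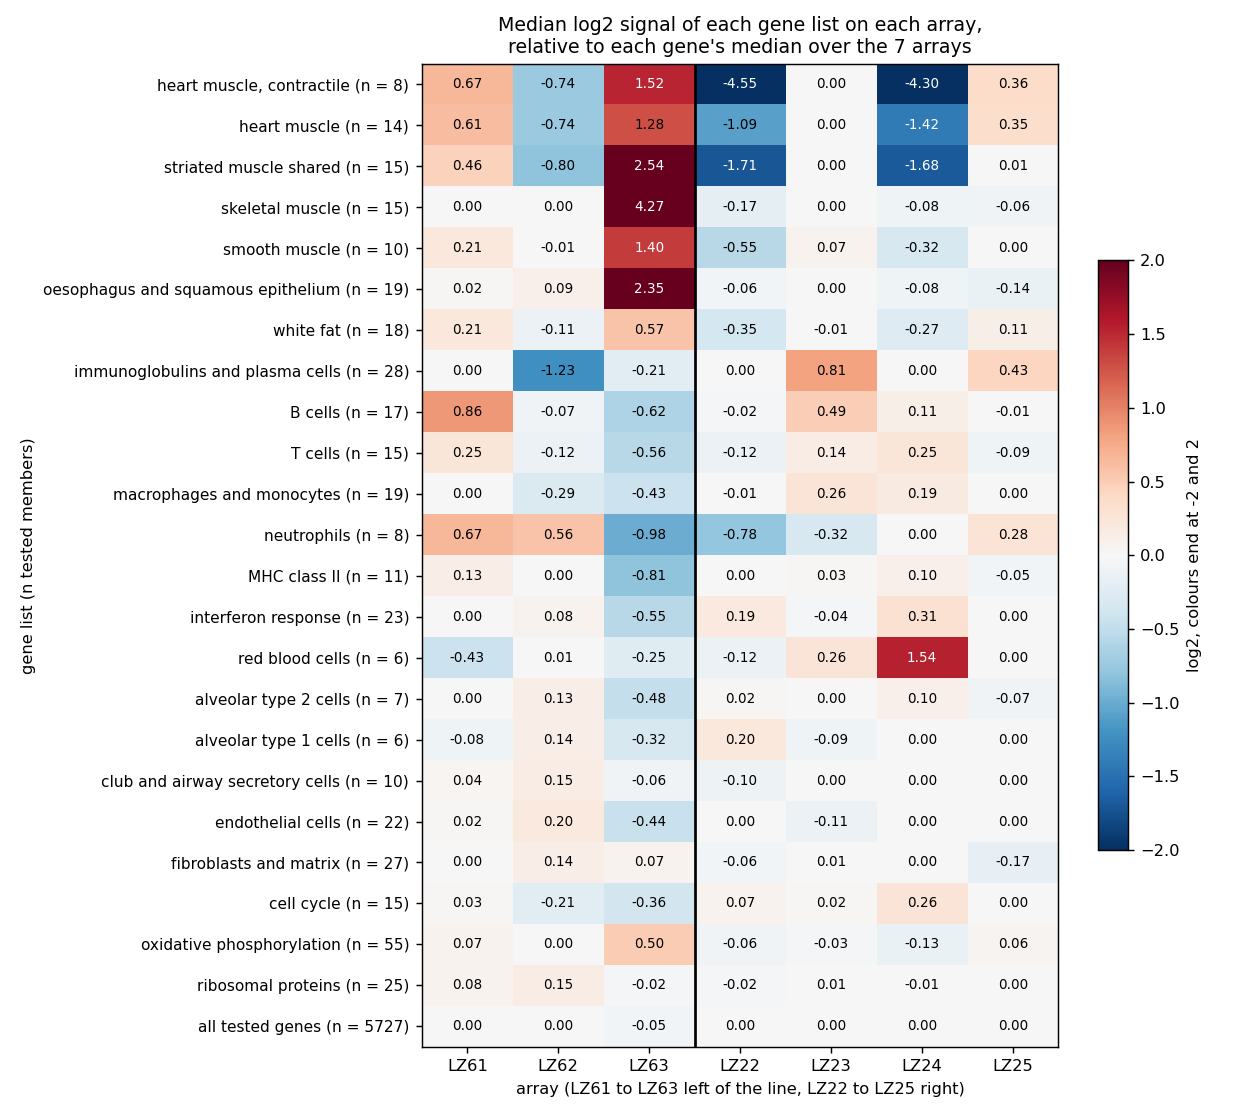
Each cell gives the median log2 signal of the tested members of a gene list (n beside its name) on an array, centred on each gene's median across all 7, with LZ61 to LZ63 left of the line and LZ22 to LZ25 right of it; colours end at -2 and 2. Skeletal muscle (4.27) and squamous epithelium stand out on LZ63, heart contractile genes on LZ22 and LZ24 (-4.55 and -4.30), immunoglobulins on LZ62 and red blood cells on LZ24.

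The lists of alveolar, endothelial and ciliated cell genes had medians between -0.17 and 0.43. Alveolar type 2 members had a median of -0.17 (6 of 7 negative) and alveolar type 1 members -0.13 (4 of 6 negative), and both had a median of -0.02 without LZ63. Sftpb, the surfactant protein B gene, read 16564.5, 19694.5 and 10600.0 on LZ61, LZ62 and LZ63, against 17324.9, 18198.0, 16442.0 and 15799.7 on LZ22, LZ23, LZ24 and LZ25 (-0.16, SE 0.19, adjusted p = 0.698). LZ63 lay below and LZ62 above the range of the LZ20s arrays, while LZ61 lay within it. Ctsh, a protease that processes surfactant proteins, was lower without overlap (-0.44, SE 0.14, adjusted p = 0.192). Endothelial members were split evenly, 11 positive and 11 negative, with a median of -0.03. Flt1, a VEGF receptor, and Vwf, the von Willebrand factor gene, were all above in the LZ60s arrays (0.49 and 0.42), beside 6.23% of all genes. Emcn, a capillary and vein sialomucin gene, was all below (-0.57, SE 0.17, adjusted p = 0.185), beside 9.52%. A second tested probe set of each of Emcn and Flt1 had groups that overlapped (-0.095 and 0.57). Ciliated cell members were positive in 4 of 4 (median 0.43, 0.22 without LZ63).

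Matrix genes gave one of the more even pictures. Of 27 tested fibroblast and matrix members, 17 were positive and 10 negative (median 0.14), and 6 lay all above and 1 all below (beside 6.23% and 9.52% of genes). Tnxb, tenascin-X, a matrix protein of collagen networks, read 595.8, 882.3 and 726.5 on LZ61, LZ62 and LZ63, against 343.9, 390.4, 270.0 and 328.6 on LZ22, LZ23, LZ24 and LZ25 (1.14, SE 0.18, adjusted p = 0.0821). It was called higher in the 12-array fit, and a second probe set differed by 0.95. Lox, the enzyme that cross-links collagen and elastin, read 351.6, 452.2 and 327.8 against 258.1, 261.6, 267.4 and 221.5 (0.57, SE 0.17, adjusted p = 0.176). Fn1, Eln, Col5a1 and Col6a2 (fibronectin, elastin and collagen chains) were also all above, by 0.29 to 0.48, and the collagen gene Col5a2 was all below (-0.51).

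Genes of oxidative phosphorylation had mostly positive and genes of the cell cycle mostly negative differences, and none passed the test with 7 arrays. Of 55 tested genes of oxidative phosphorylation, 48 were positive (median 0.26, 0.10 without LZ63) and 7 were all above, beside 6.23% of all genes. Uqcrc2, a core subunit of complex III, read 2465.0, 2112.0 and 2665.1 on LZ61, LZ62 and LZ63, against 1602.3, 1548.7, 1491.9 and 1872.2 on LZ22, LZ23, LZ24 and LZ25 (0.57, SE 0.13, adjusted p = 0.131) and was called higher in the 12-array fit. Of 15 tested cell cycle genes, 14 were negative (median -0.25). Pcna, the sliding clamp of DNA replication, read 761.5, 859.9 and 824.1 against 1593.8, 1261.0, 1059.7 and 1416.2 (-0.69, SE 0.15, adjusted p = 0.131), and was called lower in the 12-array fit. Ribosomal protein genes had a median of 0.07, heat shock genes 0.06 and immediate early genes 0.07.

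Clock genes were mixed, with 5 positive and 6 negative of 11 (median -0.12). The repressor gene Cry1 and Clock were all above (0.36 and 0.32), beside 6.23% of all genes. Dbp, Nr1d2 and Bhlhe40, all clock-controlled transcription factor genes, were all below (-0.57, -0.49 and -0.31), beside 9.52%. No clock gene passed the test. Glucocorticoid-response genes were positive in 8 of 9, with a median of 0.40 that became 0.01 without LZ63. The lists of few tested members (cartilage 6, mast cells and eosinophils 4, nerve and glia 4, mesothelium 3, thymus and lymph node 3, NK cells 2 and platelets 2) had medians between -0.89 and 0.52. The 4 thyroid and 8 liver members were all under the level for testing.

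Of the 112 probe sets called in the fit of all 12 arrays, 111 were also tested with the 7 arrays, and their adjusted p there lay between 0.0713 and 0.172. All 111 had LZ60s and LZ20s arrays that did not overlap, beside 1188 (15.9%) of all 7453 tested probe sets. They were called on this same difference, which favours such a gap, so the count is a description. Of them, 7 belonged to genes of the lists and 104 did not, beside 555 of all 7453 tested probe sets (7.45%) in the lists. Their absolute differences ran from 0.40 to 2.38, with a median of 0.71.

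Among the 15 named genes called higher, Zbtb20, a zinc finger transcriptional repressor, had the largest difference. It read 456.1, 490.4 and 430.9 on LZ61, LZ62 and LZ63, against 234.6, 277.4, 141.6 and 160.3 on LZ22, LZ23, LZ24 and LZ25 (1.23, SE 0.24, adjusted p = 0.102 with 7 arrays and 0.0369 with 12). The 3 LZ60s arrays lay close together and above all LZ20s arrays. Igf1r, the receptor of insulin-like growth factor 1, read 1547.4, 1851.2 and 1603.3 against 813.4, 929.9, 1233.7 and 1023.2 (0.75, SE 0.16, adjusted p = 0.125 and 0.0401). Itpr2, a calcium channel of the endoplasmic reticulum, read 951.3, 874.8 and 893.9 against 555.5, 469.6, 473.5 and 557.2 (0.82, SE 0.13, adjusted p = 0.0821 and 0.0401). The others, between 0.65 and 0.98 apart from Tnxb, were Dnajc15 (a mitochondrial co-chaperone), Mycbp2 and Herc1 (ubiquitin ligases), Phxr4, Cyfip2 (a regulator of actin assembly), Nfix and Atf5 (transcription factors), Aebp1 (a matrix protein of smooth muscle and fibroblasts), Map4 (a microtubule protein), Lrp1 (an endocytic receptor) and Cuedc1.

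Among the 15 named genes called lower, Rab20, a small GTPase of endosomes and phagosomes, came first. It read 76.9, 68.1 and 52.0 on LZ61, LZ62 and LZ63, against 225.1, 221.4, 347.1 and 247.3 on LZ22, LZ23, LZ24 and LZ25 (-1.98, SE 0.24, adjusted p = 0.0713 with 7 arrays and 0.0369 with 12). The 5 younger lungs ran between 51.1 and 261.3 and so covered both ranges apart from LZ24. Mapk7, a mitogen-activated kinase also called ERK5, read 31.0, 59.4 and 111.7 against 179.2, 279.3, 233.1 and 165.0 (-1.83, SE 0.40, adjusted p = 0.131 and 0.0353). Apart from Mapk7 on LZ63, the LZ60s values of both genes were under the signal that a mean had to reach for testing.

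Leukocyte and surface enzyme genes followed. Itgb2, the beta chain of leukocyte integrins, read 604.3, 417.4 and 299.3 on LZ61, LZ62 and LZ63, against 833.1, 905.1, 1090.3 and 693.8 on LZ22, LZ23, LZ24 and LZ25 (-1.04, SE 0.24, adjusted p = 0.131 and 0.0451). Nt5e, the ecto-nucleotidase that makes adenosine, read 358.4, 265.2 and 258.8 against 674.7, 597.3, 542.7 and 503.1 (-0.99, SE 0.17, adjusted p = 0.0821 and 0.0286). Pla2g1b, a secreted phospholipase, read 1130.9, 1083.6 and 1113.6 against 2392.4, 1631.4, 2711.5 and 2015.9 (-0.95, SE 0.17, adjusted p = 0.0823 and 0.0347). Its LZ60s values were nearly equal, while the LZ20s values spread. The others, between -1.22 and -0.81 apart from Cd68, were Nup54 (nuclear pore), Tubg1 (gamma tubulin), Gnai3 (an inhibitory G protein subunit), Tmem37, Egr2 (an immediate early transcription factor), Apmap, Hgsnat (a lysosomal enzyme), Btf3l4 and Gcnt2 (a glycosyltransferase).

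Set against the 5 younger lungs, the LZ60s mean lay outside their range for 98 of the 111 probe sets (22 of 30 higher and 76 of 81 lower) and the LZ20s mean for 41 (17 and 24). Over all 7453 tested probe sets the corresponding shares were 38.1% (2836) for the LZ60s arrays and 26.1% (1945) for the LZ20s arrays. Both means lay outside for 33 of the 111 and both inside for 5. The younger arrays helped to make these calls through the shared spread, so their range is a description.

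Not every call held for all probe sets of its gene. The largest absolute difference was that of 1 probe set of Csnk1d, a casein kinase gene, with 43.2, 53.3 and 41.6 on LZ61, LZ62 and LZ63, against 286.7, 350.2, 138.2 and 230.6 on LZ22, LZ23, LZ24 and LZ25 (-2.38, SE 0.32, adjusted p = 0.0821). The other 2 tested probe sets of Csnk1d differed by 0.00 and -0.41 at far higher signals. For Plk1, a mitotic kinase, the 2 tested probe sets gave 1.46 and 0.08, and for Pdia6, a chaperone, 3 gave -0.61, -0.50 and -0.12. Nfix had a second tested probe set that differed by -0.01 with overlap, against 0.81 for the one called. The genes of this comparison were looked up after the calls were seen.

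**Figure D4:**
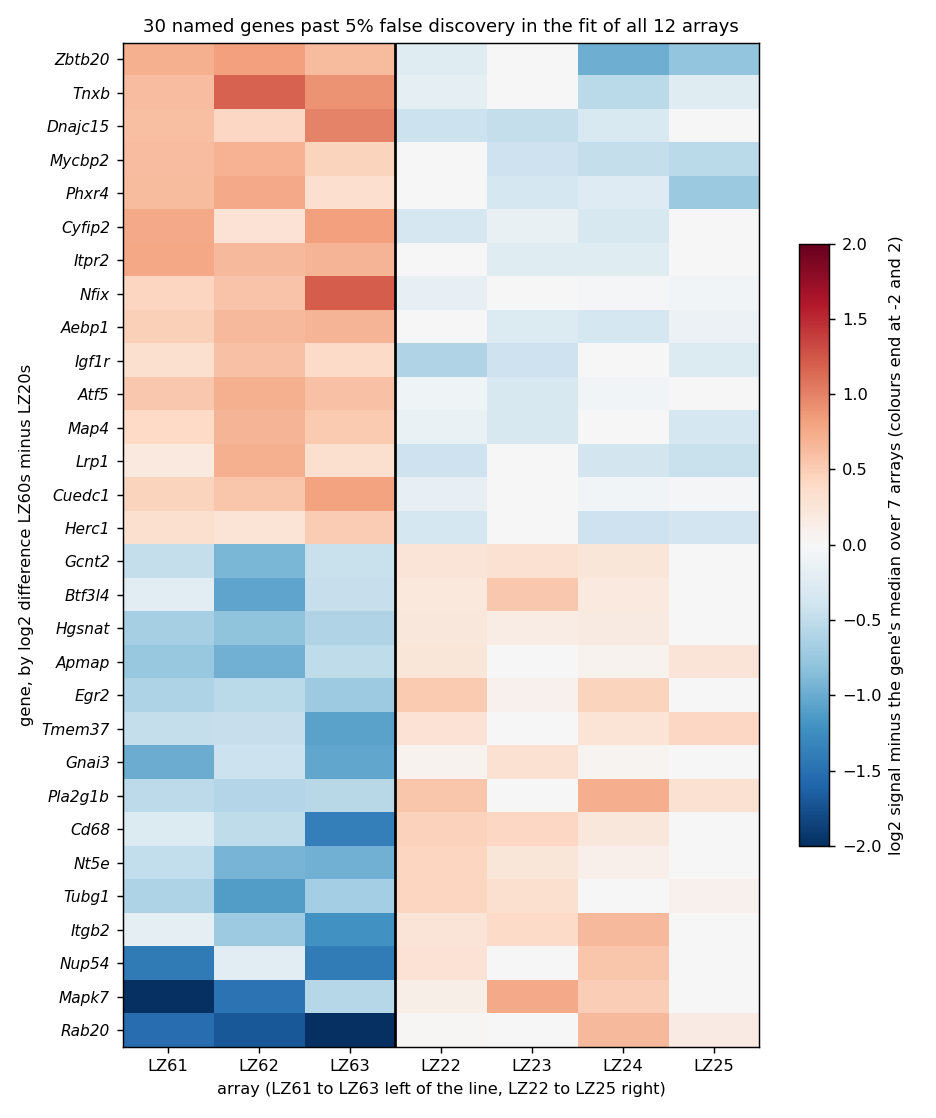
Log2 signal of the 30 named genes called with all 12 arrays, centred on each gene's median across all 7, ordered by difference, with LZ61 to LZ63 left of the line and LZ22 to LZ25 right of it; colours end at -2 and 2. In each row the LZ60s arrays lie on the same side of the LZ20s arrays, which the choice of these genes required. Zbtb20 is at the top (difference 1.23) and Rab20 at the bottom (-1.98).

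Control probe sets also separated the run days. The bacterial transcripts BioB, BioC and BioD are added in fixed amounts as hybridisation controls. BioB (5′ probe set) read 133.6, 134.9 and 132.0 on LZ61, LZ62 and LZ63, against 295.2, 330.8, 263.0 and 273.7 on LZ22, LZ23, LZ24 and LZ25, and BioC (5′) read 476.6, 612.8 and 380.8 against 2077.6, 2712.3, 2620.2 and 2049.7. BioD (3′) was lower too, at 2607.5, 2560.9 and 2197.9 against 3587.2, 4368.4, 3915.2 and 3380.5. Cre (3′) overlapped (1.08-fold). In the younger lungs BioB lay between 284.5 and 773.7, BioC between 596.1 and 3419.3 and BioD between 7467.8 and 13039.5, above both ranges. For BioC the arrays AJ1, AJ2 and AJ4 read 714.2, 650.8 and 596.1, so LZ62 lay within their range.

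Some controls that read the sample's own RNA differed as well. The 5′ probe set of 18S ribosomal RNA read 31451.3, 16032.2 and 10645.6 on LZ61, LZ62 and LZ63, against 9390.1, 31.7, 54.8 and 150.9 on LZ22, LZ23, LZ24 and LZ25, and between 31.0 and 478.5 in the younger lungs. Only LZ22 came near the LZ60s arrays, and on the 5′ probe set alone: the 3′ probe set read 21882.8, 2052.3 and 8023.7 against 276.6, 150.4, 158.4 and 314.2, and the middle one 12521.2, 237.8 and 324.3 against 84.6, 48.0, 20.6 and 19.7. The B1 repeat, a short interspersed element found in many transcripts and introns, read 7967.1, 7960.2 and 6058.9 against 4324.2, 3761.6, 3278.0 and 4466.0, also without overlap. The ratio of 3′ to 5′ signal for beta-actin was 1.12, 1.19 and 1.09 on LZ61, LZ62 and LZ63, against 1.12, 1.07, 1.0 and 1.03 on LZ22, LZ23, LZ24 and LZ25, and overlapped. The part of these control differences in any gene's difference was not tested.

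**Figure D5:**
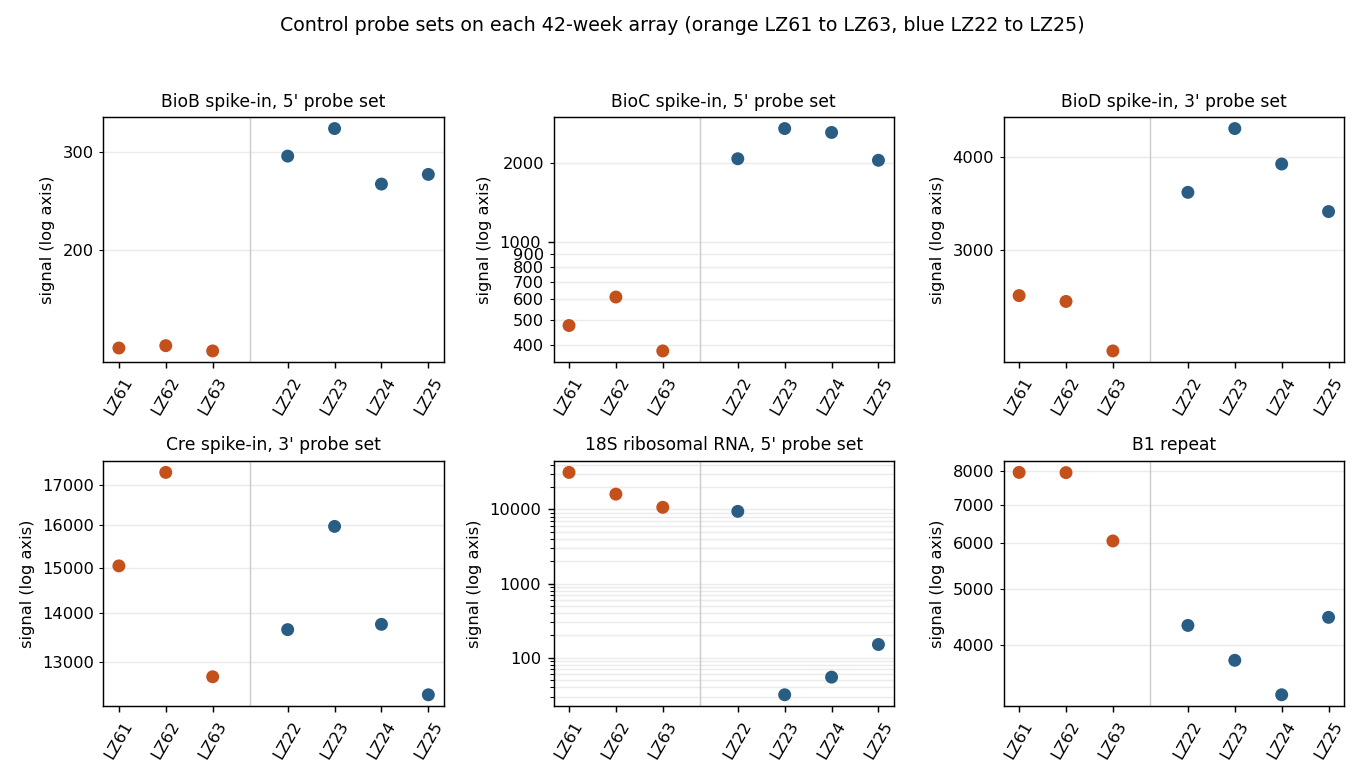
Each panel plots the signal (log axis) of 1 control probe set on LZ61, LZ62 and LZ63 (orange) and on LZ22, LZ23, LZ24 and LZ25 (blue). BioB, BioC and BioD are lower and the B1 repeat higher on all LZ60s arrays, Cre overlaps, and the 5′ probe set of 18S ribosomal RNA is high on LZ61 to LZ63 and on LZ22.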

How the data were processed

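Lung RNA was measured on 7 Affymetrix MG_U74Av2 arrays at 42 weeks and 5 at 24 to 26 weeks. The deposited intensity values are MAS5 signals on a linear scale, per the submitters' processing notes. The MAS5 version, the scaling settings and the annotation's build were not given in the sources used here. Groups were taken from the sample titles. The members and gene lists were chosen with earlier results of these data known.

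Of 12488 probe sets, 66 controls were left out of tests. Symbols came from the platform annotation: 10833 probe sets had 1 symbol, 396 several and 1193 none, and only those with 1 were named. Values were taken as log2 without a pseudocount (none was at or below 0). Tests covered those whose average log2 signal reached the 40th percentile over the arrays fitted, and were run with limma 3.58.1 in R 4.3.3 (lmFit, eBayes with trend and robust settings, statmod 1.5.0). The tests were two-sided and adjusted by Benjamini-Hochberg across the 7453, at a 5% false discovery rate. With 7 arrays the fit had 5 residual degrees of freedom and a median SE of 0.18. For a gene with several probe sets, the one with the highest mean log2 signal stood for it. The number of arrays limits the precision.

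Named genes were up to 15 per direction by absolute difference among non-overlapping calls (taken from the 12-array fit, since 0 passed with 7), up to 2 per list by p, a fixed set of tissue genes, and up to 4 per array farthest from the other arrays. The fixed genes Cfd and Ccl21a were not analysed here. Of 37 lists, 35 had tested members; lists have no test and are given by counts and medians. Alternatives were all 12 arrays, other filters, a pseudocount of 29.1, plain eBayes, array weights, quantile and equal-median scaling, and leaving out arrays; the fluidics module as a block and leaving out LZ24 and LZ63 together were chosen after seeing the data. No array was dropped or imputed otherwise. The procedure was tested on simulated data with the same spread for every probe set and no outlying arrays, unlike the data here.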

Additional observations from a re-analysis of the deposited data

Results flagged for a closer look

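Among the 4 LZ20s arrays, a value was picked out where its gap to the nearest other array exceeded Dixon's 95% limit for 4 samples; groups of 3 were not examined. Of 121 named genes 6 met this, and of 32 lists 4, where chance picks about 1 in 20 values not chosen beforehand. Some of these genes were named because an array lay far from the others, so that rate does not apply to them as a set. The genes were Bpgm on LZ24 (5182.2, others 970.9 to 1238.2), Ccnb2, a mitotic cyclin gene, on LZ24 (739.0, others 473.9 to 508.5), Cd2 on LZ25 (341.8, others 476.1 to 505.9), Herc1 on LZ23 (762.5, others 573.3 to 600.5), Lrp1 on LZ23 (1322.9, others 968.1 to 1020.7) and Tyk2, a cytokine receptor kinase gene, on LZ23 (37.3, others 173.9 to 211.4).

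The list medians were those of club and airway secretory cells on LZ22 (-0.099, others -0.003 to 0.0), endothelial cells on LZ23 (-0.114, others 0.0), the circadian clock on LZ23 (0.06, others 0.0) and glucocorticoid response on LZ22 (-0.164, others -0.025 to 0.0). On the other LZ20s arrays these medians lie at or near 0, since values are centred on each gene's median.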

How the results depend on the processing

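With 7 arrays 0 probe sets were called under plain eBayes, the pseudocount, the 60th percentile filter, no filter, the module block, a 1% false discovery rate, the exact permutation test, and without LZ22 and LZ24 or without LZ22, LZ24 and LZ63. The fit of all 12 arrays called 112, array weights and quantile scaling called 2 each (Rab20 and Csnk1d), equal medians 1 (Rab20, with the median over all probe sets moved to -0.09), and leaving out LZ24 and LZ63 1 (Csnk1d). Leaving out 1 array at a time gave 0 to 1 calls. The module block moved the number of probe sets with an unadjusted p under 0.05 to 716, against 1179. No paired analysis was possible because the ranges share no replicate numbers. List medians also moved by over 1.5 times with the sign kept: 0.56 for squamous epithelium with array weights, 0.63 for white fat without LZ62 and 0.195 without LZ22 and LZ24. Without LZ24 and LZ63 they were 0.39 for heart muscle, 0.27 for skeletal muscle, 0.21 for squamous epithelium and 0.24 for white fat. Without LZ22, LZ24 and LZ63 the median was -0.185 for heart muscle, 0.032 for skeletal muscle, 0.21 for squamous epithelium, 0.077 for white fat and -1.484 for immunoglobulins. The immunoglobulin median ranged between -1.137 and -0.263 with 1 array left out, and the macrophage median was -0.187 with array weights. The directions of single genes turned as follows, and the cause was not tested. Without LZ22, LZ24 and LZ63 they were Acta1 (-1.65), Actc1 (-0.23), Ada (-0.076), Adipoq (-0.85), Bpifb1 (-1.78), Car3 (-1.55), Cdsn (-0.16), Csrp3 (-0.65), Krt4 (-0.10), Myh6 (-0.16), Myl1 (-0.54), Myl4 (-0.73), Myl7 (-0.35), Nppa (-0.11), Pgam2 (-1.03), Pvalb (-0.088), Reg3g (-2.98), Tnnt2 (-0.19) and Sftpb (0.091). Without LZ22 and LZ24 they were Adipoq (-0.038), Bpifb1 (-0.90), Car3 (-0.03), Cd79a (-0.054), Myl4 (-0.13) and Reg3g (-1.70). Without LZ24 and LZ63 they were Cdsn (-0.16), Pecam1 (-0.12), Pvalb (-0.22), Reg3g (-0.56), Sftpb (0.081) and Tyk2 (-0.006). Array weights turned Tyk2 (-0.44). With 1 array left out Ada turned without LZ63 (range -0.005 to 3.357), Cd79a without LZ61 (-0.416 to 0.652), Sftpb without LZ63 (-0.352 to 0.094), Sftpc without LZ62 (-0.027 to 0.212) and Tyk2 without LZ23, LZ62 or LZ63 (-0.396 to 0.865). Precision was limited by 3 and 4 arrays, and 4969 probe sets with the lower mean signals were not tested.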

Other observations

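A few named genes far from the other arrays belong to none of the tissues above. The probe set taken for Actb, a cytoskeletal actin gene, read 1318.6, 2106.5 and 596.3 on LZ61, LZ62 and LZ63, against 355.8, 73.7, 87.3 and 254.4 on LZ22, LZ23, LZ24 and LZ25 (log2 difference 2.93, SE 0.73, adjusted p = 0.176 in limma), and a second probe set differed by 0.72. The 3 control probe sets of beta-actin, at far higher signals between 22214.4 and 34555.9, overlapped and differed by 0.19, 0.08 and 0.01, so a change of beta-actin is not shown. Cyp2c39, a cytochrome P450 gene, read 312.2, 241.1 and 207.9 against 150.0, 124.3, 36.0 and 18.1 (2.08, SE 0.74, adjusted p = 0.249). In both genes the ranges did not overlap, and the fit did not call them. Gtse1 and Pacsin1 were low on LZ23 only (14.3 and 26.7), and Smyd2 was low on LZ61 (41.2).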
